A study of Drosophila melanogaster with 384 samples.

Results

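The Polycomb group genes described here are 10 genes of Drosophila melanogaster that encode core subunits of the Polycomb repressive complexes: Pc, ph-p, ph-d, Psc, Su(z)2 and Sce of Polycomb repressive complex 1 (PRC1), E(z), Su(z)12 and esc of Polycomb repressive complex 2 (PRC2), and Scm, which associates with PRC1. They were chosen by symbol and not by a cutoff on level, with earlier results of these data known. They were matched to the gene IDs of a table of 14219 features, in which all 10 were found. The cells are single neuroblasts, the stem cells of the fly nervous system, from central brains of third-instar larvae, read by SMART-Seq2, which sequences whole transcripts of 1 cell at a time. Control larvae carried UAS-sh-mCherry, a hairpin against a fluorescent protein that flies lack, and tumor larvae carried UAS-sh-brat, a hairpin against the translational repressor brat, whose loss lets neuroblast daughters return to a stem-cell state. Both groups also carried UAS-Dcr2, inscGal4 and UAS-CD8::GFP, were reared for 6 to 7 days at 29 °C. The driver inscGal4 acts in neuroblasts, so the hairpin and the green membrane protein used for sorting were made there, and remaining green protein can label the daughters too. Control cells came from 1 pool of 5 brains and tumor cells from 1 pool of 3 brains. Each group filled 2 plates of 96 wells, plates 1 and 2 for control and plates 3 and 4 for tumor, with plates told apart by runs of library numbers that reuse the same index pairs.

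Polycomb group proteins keep genes off through cell divisions by marking chromatin. PRC2 methylates lysine 27 of histone H3, with E(z) as the enzyme. PRC1 reads that mark through the chromodomain of Pc and compacts chromatin, and its RING subunit Sce ubiquitylates histone H2A. In the fly nervous system the complexes restrain Hox genes and other regulators of position and fate, and in neuroblasts they act on survival and on temporal identity.

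With a minimum per well of 100000 reads and of 1000 genes with a read, 89, 91, 93 and 92 cells remained on plates 1 to 4. They held 262976815 control and 204489558 tumor reads, and at 100000 reads a cell the median cell showed 5013.5 genes in control and 3165 in tumor. The level of brat was 312 and 374 counts per 1000000 reads (CPM) on the control plates and 93.6 and 81.9 CPM on the tumor plates. Summed neuroblast markers (dpn, mira, wor, insc, ase, klu and SoxN) ranged from 3733 to 7764 CPM over the plates. Those of hemocytes ranged from 0.0725 to 0.815 CPM, those of glia from 26.6 to 49.1 CPM (23 and 10 reads of repo in control and tumor, 0 of alrm), and those of neurons from 132.5 to 388 CPM, highest in tumor. A pool of brains is 1 sample, and cells and plates of 1 pool are not replicates, which leaves no test to make and no p-value to give. Spread is shown by the plates, and intervals are 95% intervals that cover the counting of reads or cells only. A lower CPM can mean fewer cells with the transcript or less of it per cell, and the share of cells is given for that reason.

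Summed over all 10 genes, Polycomb group transcripts made up 627 and 594 CPM on the control plates and 651 and 648 CPM on the tumor plates. The sum differed little between the groups, while single genes differed in both directions. Scm and ph-p were at least 2-fold higher in tumor, which makes 2 of 10 genes, where 13.1% of the 6450 measured genes were. A gene counts as measured at a mean of both groups of at least 5 CPM, which Su(z)2 did not reach. None of the 10 was at least 2-fold lower, where 14.7% of measured genes were. In 4 genes (Pc, ph-p, ph-d and Scm) both tumor plates lay above both control plates, against 33% of measured genes, and in esc and Psc both lay below, against 35.1%. Over all plate pairs, Scm alone kept a 2-fold difference, which 6.90% of measured genes kept upward and 7.57% kept downward. These shares are near those of measured genes at large. The median log2 ratio of tumor over control was 0.26 over the 10 genes and 0.00 over all measured genes.

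**Figure D1:**
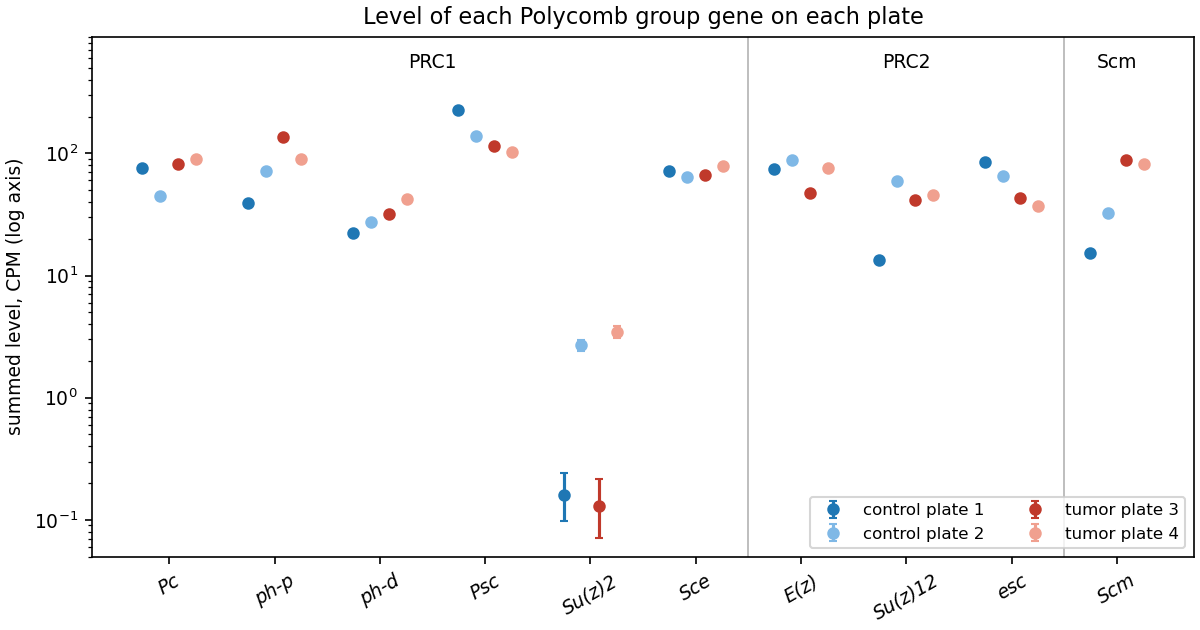
Level of each gene on each plate, in CPM summed over the kept cells of the plate, on a log axis; points are plates and bars are 95% Poisson intervals, mostly smaller than the point. Scm is low on both control plates (15.2 and 32.6 CPM) and high on both tumor plates (88.01 and 81.32 CPM), and Su(z)2 is below all others on every plate.

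Pc, the chromodomain subunit of PRC1 (chromosome 3L, 21306138 to 21318020, minus strand), stood at 76.03 and 44.47 CPM on the control plates and at 81.22 and 89.74 CPM on the tumor plates. Both tumor plates were higher, but plate 3 exceeded control plate 1 by only 0.10 on the log2 scale. Summed over plates the level was 60.3 CPM (95% interval 59.4 to 61.3) in control and 85.24 CPM (83.98 to 86.52) in tumor, 1.41-fold higher, and the log2 ratio was 0.50 with plate pairs from 0.10 to 1.01. Its exons overlap those of CG7632 on the other strand by 60 bases, and the sources used here do not say whether reads were counted by strand. The level of CG7632 was 19.7 CPM for control and 20.8 CPM for tumor.

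The polyhomeotic genes ph-p and ph-d lie next to each other on chromosome X (2126210 to 2138371 and 2115727 to 2123286, both on the minus strand) and encode similar SAM-domain proteins that let PRC1 form polymers. ph-p stood at 39.5 and 71.7 CPM on the control plates and 136.3 and 90.04 CPM on the tumor plates. Both tumor plates were the higher, and the summed level went from 55.5 CPM (54.6 to 56.4) to 114.5 CPM (112.99 to 115.9), 2.06-fold higher, a log2 ratio of 1.04 with plate pairs from 0.33 to 1.79. Without plate 1 it was 0.67 and without plate 3 it was 0.70, both under 2-fold. ph-d was lower per plate, at 22.4 and 27.6 CPM (control plates) and 31.9 and 42.5 CPM (tumor plates), with no overlap of the groups and a log2 ratio of 0.56 (plate pairs 0.21 to 0.92). By the median over cells its log2 ratio turned to -1.63, where the median over measured genes that gave a value was -0.67. Genes with a tumor median of 0 gave none, and their number is not given here. The partition of reads between these near-identical copies depends on how the authors' counting treated shared stretches, which the sources used here do not give. Of the reads of both, ph-p took 63.8% and 72.2% on the control plates and 81.01% and 67.96% on the tumor plates. The groups overlap in that share. In cells thinned to 100000 reads, 51.7% of cells in control and 38.4% in tumor had reads of both copies, and 15.0% and 22.2% had a read of neither.

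Psc, a RING-finger subunit that partners Sce in PRC1, and its relative Su(z)2 are neighbours on chromosome arm 2R (12965997 to 12980994 on the minus strand and 12996501 to 13007911 on the plus strand). Psc was the gene with the most reads of the set in control, at 228 and 137.5 CPM on the control plates against 114.4 and 103.1 CPM on the tumor plates. The tumor plates were both lower, and the summed level went from 183.1 CPM (181.4 to 184.7) to 109.05 CPM (107.6 to 110.5), 1.68-fold lower, a log2 ratio of -0.75 with plate pairs from -1.15 to -0.27. Without plate 2 it was -1.06, and without plate 1 it was -0.33. On plate 1 a single cell reached 4065 CPM of Psc, and without it that plate stood at 222 CPM. Su(z)2 was barely seen, at 0.159 and 2.68 CPM on the control plates and 0.130 and 3.44 CPM on the tumor plates, from 372 reads in control and 346 in tumor. The plates of each group differed far more than the groups: on plate 4, 197 of its 332 reads came from 1 cell, and on plate 3, 12 of 14 did. Psc therefore held 99.2% of the reads of the pair in control and 98.5% in tumor.

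Sce, the ubiquitin ligase of PRC1 (chromosome 3R, 27680431 to 27682029, minus strand), differed least between the groups. Its levels were 72.2 and 63.8 CPM on the control plates and 66.1 and 79.5 CPM on the tumor plates, which overlap, and the log2 ratio was 0.09 (plate pairs -0.13 to 0.32). A single cell of plate 4 with 1355 CPM gave 18.0% of the Sce reads there, and without it that plate stood at 65.9 CPM. Without the highest cell of every plate the log2 ratio was -0.03. Summed over the 6 genes, PRC1 transcripts amounted to 438 and 348 CPM on the control plates and 430 and 408 CPM on the tumor plates, and the groups overlap.

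E(z), the histone methyltransferase of PRC2 (chromosome 3L, 10634575 to 10638130, minus strand), stood at 74.8 and 88.7 CPM on the control plates and 47.7 and 75.4 CPM on the tumor plates. Tumor plate 4 lay just above control plate 1, so the groups overlap. Summed levels were 81.7 CPM (80.6 to 82.8) in control and 60.8 CPM (59.7 to 61.9) in tumor, 1.34-fold lower, a log2 ratio of -0.43 with plate pairs from -0.89 to 0.01. By the median over cells the level was 76.7 CPM in control and 6.496 CPM in tumor, a log2 ratio of -3.56. The median over measured genes that gave a value was -0.67, which leaves out genes with a tumor median of 0. Its exons overlap CG34001 on the other strand by 38 bases, and that gene went from 26.8 to 14.8 CPM.

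Su(z)12, the zinc-finger subunit that PRC2 needs for activity (chromosome 3L, 19918242 to 19923462, minus strand), differed most between plates of 1 pool among the 9 genes over 5 CPM. It stood at 13.5 CPM on control plate 1 and 59.3 CPM on control plate 2, which are 2.14 apart on the log2 scale, with both tumor plates, 41.7 and 45.9 CPM, in between. Its summed log2 ratio of 0.27 is therefore not readable as a difference between the groups, since the plate pairs run from -0.51 to 1.77. Su(z)12, Scm and Su(z)2 differed at least 2-fold between the control plates, which is 3 of 10 genes beside 10.3% of measured genes. Between the tumor plates only Su(z)2 did, beside 6.74%. The median size of the log2 difference between the control plates was 0.75 over the 10 genes and 0.40 over measured genes, and between the tumor plates it was 0.24 and 0.27. The 10 include Su(z)2, which was not measured and differed by 4.08 and 4.73. Control plate 2 also showed more genes at equal depth, a median of 5324 a cell against 4666 on plate 1, and its part in these differences was not tested.

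The WD40 subunit gene esc (chromosome 2L, 11827204 to 11829405, minus strand) encodes the protein through which PRC2 binds methylated histone H3. Its levels were 85.1 and 65.5 CPM on the control plates and 43.002 and 36.9 CPM on the tumor plates. The tumor plates were both lower, and the summed level went from 75.4 CPM (74.3 to 76.4) to 40.12 CPM (39.26 to 41.002), 1.88-fold lower, a log2 ratio of -0.91 with plate pairs from -1.21 to -0.61. Without plate 2 it was -1.08 and without plate 3 it was -1.03, past 2-fold. The related gene escl, whose protein can stand in for esc, went from 26.5 to 37.4 CPM, with both tumor plates (38.1 and 36.6 CPM) above both control plates (32.001 and 20.98 CPM). Of the reads of both genes esc thus took 72.7% and 75.8% on the control plates and 53.03% and 50.24% on the tumor plates. This balance did not overlap between the groups. Among single measured genes, both tumor plates lay above both control plates in 33% and below in 35.1%. How often other gene pairs kept such a balance apart was not counted. Among cells thinned to 100000 reads, those with both genes went from 53.9% to 19.5% and those with neither from 5.56% to 36.2%. Cells with esc but no escl went from 33.3% to 24.9% and those with escl alone from 7.22% to 19.5%, while the share with any escl read was itself lower in tumor, at 61.1% and 38.9%. Summed over the 3 genes, PRC2 transcripts amounted to 173.3 and 213.6 CPM on the control plates and 132.5 and 158.3 CPM on the tumor plates, with both tumor plates lower.

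Scm, a SAM-domain protein that bridges PRC1 to other Polycomb complexes (chromosome 3R, 9633359 to 9637611, minus strand), showed the widest difference among the genes over 5 CPM. It stood at 15.2 and 32.6 CPM on the control plates and at 88.01 and 81.32 CPM on the tumor plates. Every tumor plate was at least 2-fold above every control plate, and the summed level went from 23.9 CPM (23.3 to 24.4) to 84.9 CPM (83.6 to 86.1), 3.56-fold higher, a log2 ratio of 1.83 with plate pairs from 1.32 to 2.53. Of measured genes, 96.3% had a lower ratio. Its exons overlap those of SpdS on the other strand by 315 bases, and the level of SpdS was 152.9 CPM for control and 159.4 CPM for tumor.

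**Figure D2:**
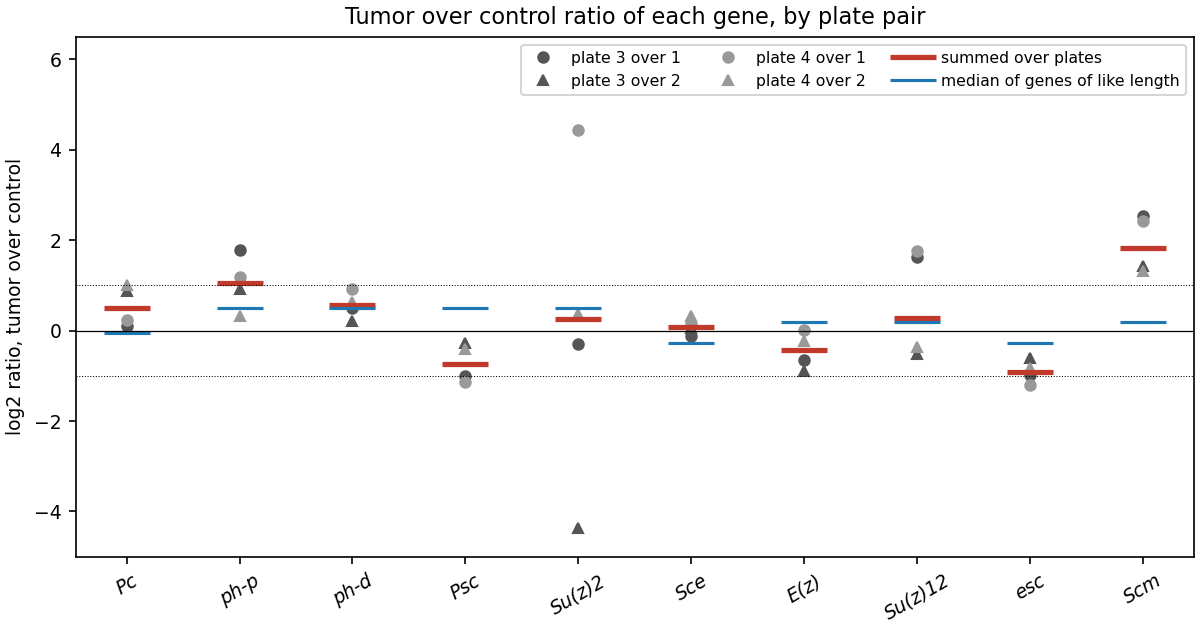
Log2 ratio of tumor over control for each gene; grey points are the plate pairs, red bars the ratio of levels summed over plates, blue bars the median ratio of measured genes in the same length class (5 classes of equal size by exonic length), and dotted lines mark 2-fold. Scm lies above 2-fold in every pair, esc and Psc lie below 0 in every pair, and the pairs of Su(z)12 and Su(z)2 straddle 0.

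The ratio of tumor over control moved with transcript length in these libraries. Over 5 classes of measured genes, from the shortest to the longest exonic length, the median log2 ratio was -0.50, -0.28, -0.05, 0.19 and 0.49, and control plate 2 over control plate 1 showed a like order, from -0.32 to 0.43. Polycomb group genes are long, with a median of 4084 exonic bases, where measured genes had 2166. Against the median of its own length class, Scm was higher by 1.64, Pc by 0.55 and ph-p by 0.55, and ph-d by 0.07, on the log2 scale. Psc differed by -1.24, further from genes of like length than from 0, E(z) by -0.62 and esc by -0.63. The part that length played in any single gene was not tested.

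Detection across cells gave another view. With each cell thinned to 100000 reads, the share of cells with a read was lower in tumor for 9 of the 10 genes, beside 91.5% of measured genes, and higher for Scm alone, beside 6.78%. For Psc the share went from 97.8% (94.4 to 99.4) in control to 65.4% (58.1 to 72.2) in tumor, for E(z) from 89.4% (84.01 to 93.5) to 50.3% (42.8 to 57.7), and for esc from 87.2% (81.4 to 91.7) to 44.3% (37.04 to 51.8). On both tumor plates these shares lay below both control plates. How often this held among measured genes was not counted.

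Pc was seen in 85.6% and 63.2% of cells, control first, and Sce in 86.1% and 58.4%. For ph-p the shares were 78.3% and 69.7%, for ph-d 58.3% and 46.5%, and for Su(z)12 70.0% and 54.1%. Pc, ph-p and ph-d thus had lower shares of cells beside higher summed levels, so no order of the groups is read from these shares. Scm was seen in 41.6% and 71.4% of cells on the control plates and in 74.2% and 64.1% on the tumor plates, which overlap. Its pooled share was 56.7% in control (49.1 to 64.02) and 69.2% in tumor (61.996 to 75.8), but with all reads of each cell it was 76.1% and 73.5%. Su(z)2 was seen in 5.56% and 2.16% of cells, and on plate 1 in 0 of 89 cells after thinning (exact interval up to 4.06%, for cells with a read at that depth only) but in 11.2% with all reads. The median difference was -19.1 percentage points over the 10 genes and -23.7 over measured genes. Without Su(z)2, which was not measured, it was -22.3 over the other 9 genes. Over the 3122 measured genes within their range of level it was -30.1.

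Where a transcript was seen, tumor cells mostly held more reads of it. The mean number of reads in cells with a read, at 100000 reads a cell, went from 3.75 to 12.3 for Scm, from 7.05 to 16.1 for ph-p and from 7.29 to 13.9 for Pc. It was 8.61 and 8.65 for esc, nearly equal, and lower in tumor only for Psc, at 21.5 and 15.4. For Psc the lower value rested on control plate 1. Its plates stood at 28.6 and 14.8 reads in control and 15.4 and 15.3 in tumor, which overlap. Over all measured genes the medians were 6.496 in control and 11.6 in tumor, and 83.1% of genes had more reads per such cell in tumor. Counting only cells with at least 5 reads, 6 of the 10 genes had a larger share in tumor, beside 33.6% of measured genes. The plates of the groups overlapped in 3 of these, Pc, Su(z)12 and ph-p, and Su(z)2 rested on 2 tumor cells. For ph-d the groups lay apart only narrowly, with tumor plate 3 at 23.7% just above control plate 2 at 23.1%. Its tumor plate 4 stood at 28.3% and its control plate 1 at 15.7%. The share of cells with at least 5 reads of Scm was 21.1% in control and 55.7% in tumor. For Scm both tumor plates (56.99% and 54.35%) lay above both control plates (14.6% and 27.5%). How often measured genes kept their plates apart in this share was not counted.

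**Figure D3:**
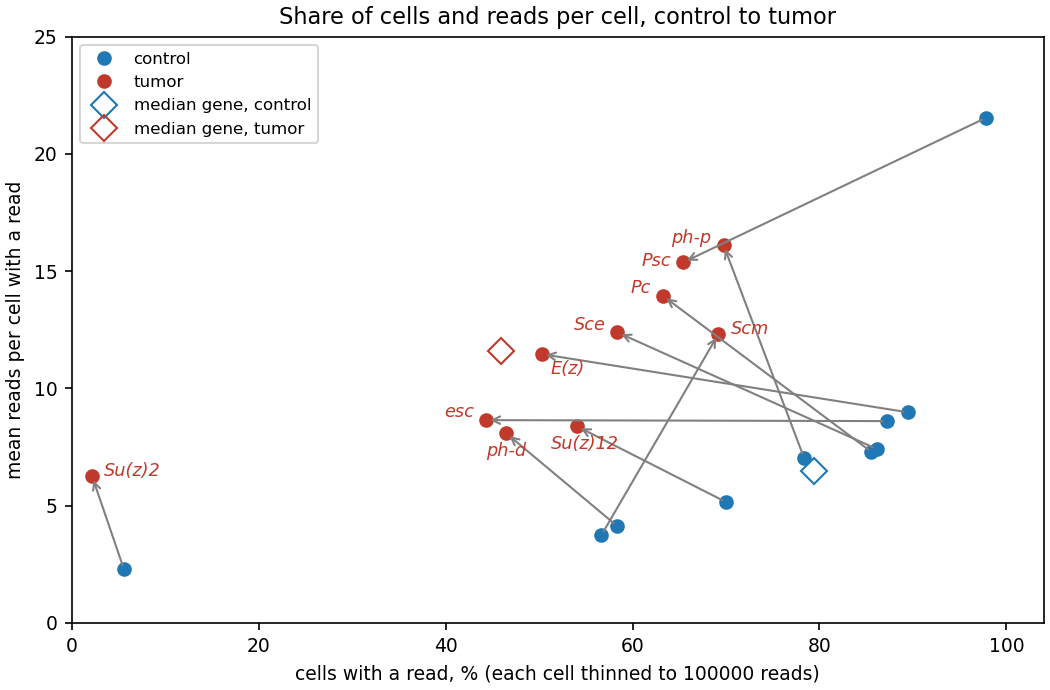
Share of cells with a read (x axis, each cell thinned to 100000 reads) against the mean number of reads in those cells (y axis) for each gene; arrows run from control (blue) to tumor (red) and diamonds mark the medians of measured genes. Most arrows run to the left and upward, as do the medians (79.4% to 45.9% of cells, 6.496 to 11.6 reads). Psc runs downward, esc level and Scm to the right. The plates of the groups overlap for Psc in reads per cell and for Scm in share of cells.

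Per kilobase of exon, esc and Sce led the set in control, at 44.2 and 44.1 CPM per kilobase, followed by E(z), Psc, Pc, Su(z)12, ph-p, Scm, ph-d and Su(z)2. Neighbours in that order whose plate ranges did not overlap were Sce and E(z), Pc and Su(z)12, and ph-d and Su(z)2. In tumor the order was Sce, Pc, esc, E(z), Scm, Psc, ph-p, Su(z)12, ph-d and Su(z)2, with Sce at 46.98 and Pc at 34.6 CPM per kilobase, and the plates of esc and E(z), of E(z) and Scm and of Psc and ph-p overlapped. The level of esc exceeded that of 67.0% of measured genes in control and of 51.3% in tumor, both per kilobase. Scm went from above 18.8% of measured genes to above 47.3%, and ph-d stayed low, above 13% and 15.9%.

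Most control cells showed most of the set together. At 100000 reads a cell, the median cell had reads of 7 and 8 of the 10 genes on the control plates and of 6 and 5 on the tumor plates. A whole PRC1 set, meaning reads of Pc, of Sce, of ph-p or ph-d and of Psc or Su(z)2, was seen in 60.7% and 75.8% of control cells by plate and in 25.8% and 20.7% of tumor cells. A whole PRC2 set of E(z), Su(z)12 and esc was seen in 37.1% and 86.8% of control cells and in 16.1% and 22.8% of tumor cells. The control plates were far apart in PRC2, where Su(z)12 was seen in 46.1% of cells on plate 1 and 93.4% on plate 2. The number of the genes seen in a cell went with the number of all genes seen in it, with Spearman correlations of 0.46 to 0.71 within plates, while their summed level did not (-0.04 to 0.19). The smaller number of genes seen per tumor cell, given above, moves with these counts, and its part in them was not tested.

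**Figure D4:**
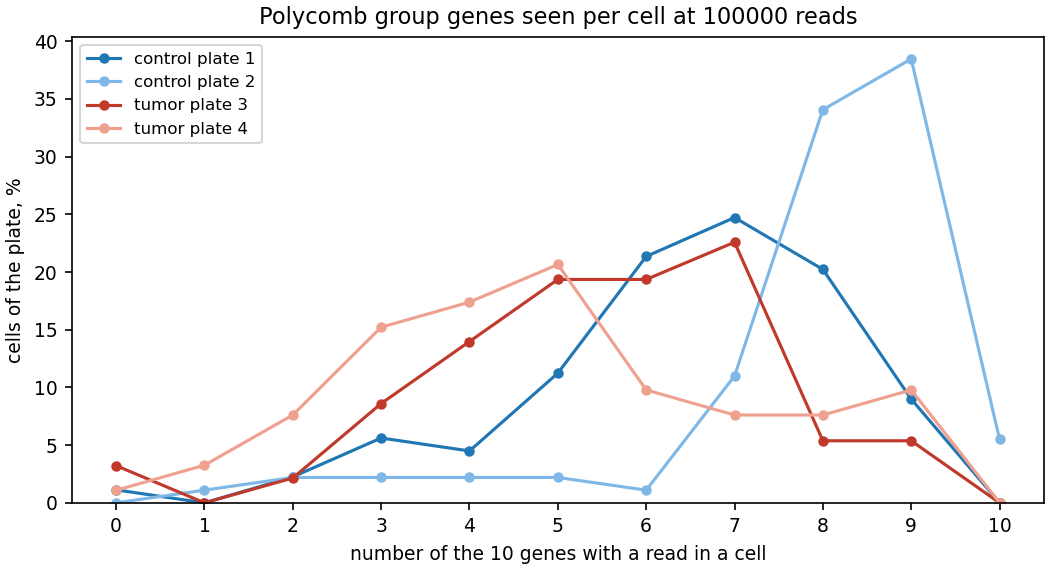
Percent of cells of each plate (y axis) by the number of the 10 genes with a read (x axis), each cell thinned to 100000 reads. Control plate 2 peaks at 9 genes, control plate 1 and tumor plate 3 at 7 and tumor plate 4 at 5, and 5 cells, all on plate 2, showed all 10.

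The level of one gene said little about another across cells. Spearman correlations of thinned reads were taken within each plate for the 9 genes seen in at least 25% of the cells of each plate (without Su(z)2), a description over cells of 1 pool that share depth and plate. The median over 36 pairs was 0.13 in control and 0.05 in tumor, beside 0.06 and 0.05 over 10846153 pairs of 4658 genes. In control 6 pairs lay above 0.22, the 95th percentile of all pairs, and in tumor 2 pairs lay above 0.20. The highest pair was Pc with ph-p, subunits of 1 complex, at 0.35 and 0.35 on the control plates and 0.21 and 0.27 on the tumor plates. Next came ph-p with ph-d, at 0.42, 0.23, 0.14 and 0.19 on plates 1 to 4, a pair whose reads the counting could have mixed. Su(z)12 with Scm stood at 0.31 and 0.35 on the control plates and 0.16 and -0.06 on the tumor plates. Pairs within PRC1 had a median of 0.17 in control and -0.01 in tumor. All these correlations are weak, and in sparse counts they are no finding on shared control.

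**Figure D5:**
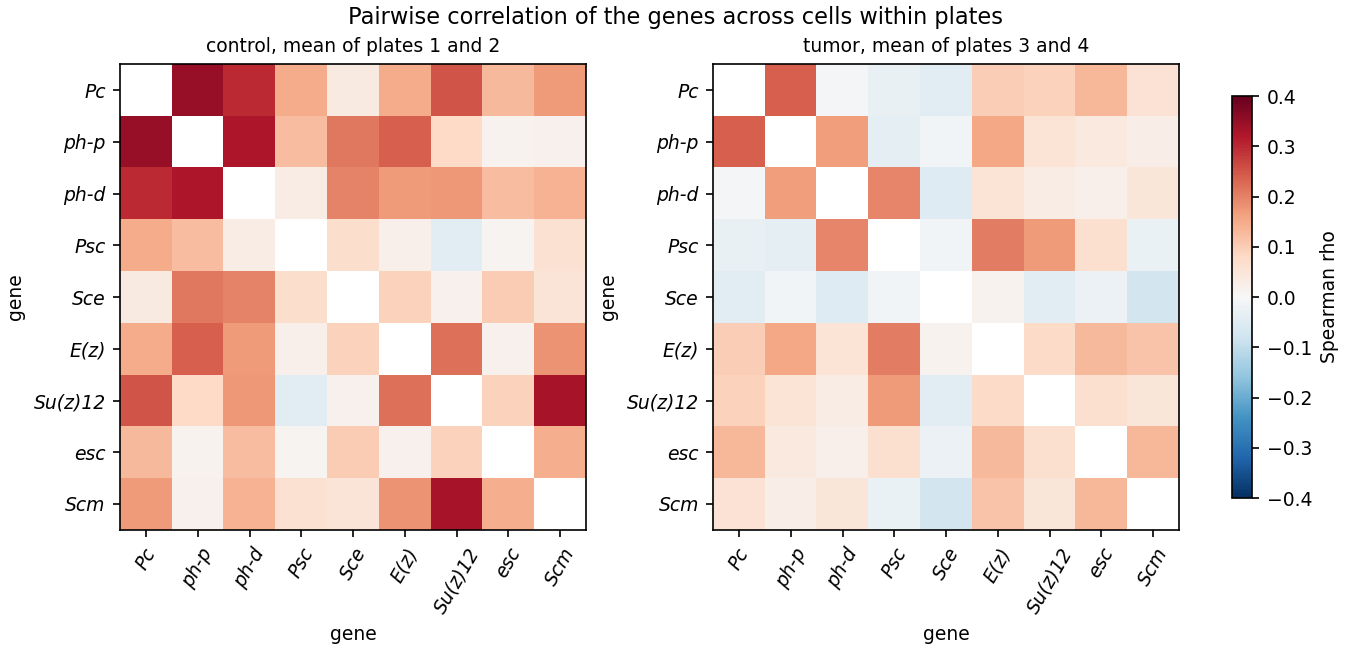
Spearman correlation across cells between each pair of 9 genes, averaged over the control plates (left) and the tumor plates (right), on a color scale from -0.4 to 0.4. Control pairs reach 0.35 (Pc with ph-p) and tumor pairs 0.24 (the same pair), and most others lie near 0.

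The genes most like each member across cells, by the mean of the plates' correlations over 4657 other genes, were no closer than 0.33. They were sra (0.30) and CG10077 (0.30) for Pc, eEF2 (0.33) and Cpsf160 (0.32) for Su(z)12, shep (0.30) and CG9114 (0.29) for Psc, and mip130 (0.29) and pzg (0.29) for Scm. For ph-p the feature FBgn0005630, which has no symbol in the tables used here, came first (0.31), and Pc second (0.29). For ph-d they were Pdha (0.29) and mrt (0.28), for Sce capt (0.27) and Caper (0.24), for E(z) Arp2 (0.27) and CG1620 (0.27), and for esc Dlip3 (0.25) and CG42724 (0.25). The correlation of esc with the summed S-phase genes was 0.27 over the plates and with the G2/M genes 0.23, where the 95th percentile of all genes was 0.24 and 0.23. Summed S-phase genes stood at 4899 and 4579 CPM on the control plates and 1593 and 1781 CPM on the tumor plates, and G2/M genes at 4944 and 4933 against 1766 and 1880 CPM. Cell-cycle genes were therefore lower in tumor beside the lower esc, and their part in it was not tested. The correlation of ph-p with the summed neuron markers was 0.18 (0.13 to 0.30 by plate), where the 95th percentile of single genes was 0.12. Summed Polycomb group genes stood at 0.25 with neuron markers. Their sum stood at 0.24 with the trithorax group genes described below, at 0.19 with neuroblast markers and at -0.02 with type II markers. A sum of genes cannot be read against a percentile of single genes. Summed neuron markers were higher in tumor, as given above, beside the higher ph-p, and their part in it was not tested. That sum rests mainly on elav (97.2 to 247 CPM) and fne (17.3 to 103.5 CPM), and Syt1 went from 16.9 to 23.7 CPM. The other markers went the other way: Cadps from 10.9 to 1.06 CPM, nSyb from 3.32 to 0.660 CPM and brp from 0.616 to 0.0342 CPM.

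Genes that act with or against the 10 were set beside them. Of 5 PRC2 partners none differed 2-fold, where 13.1% of measured genes were higher and 14.7% lower. Both tumor plates lay above both control plates in 2 of the 5 and below in 1, beside 33% and 35.1% of measured genes. Jarid2, an accessory subunit, went from 100.5 CPM in control to 181.8 CPM in tumor, Caf1-55, the histone-binding subunit that PRC2 shares with other complexes, at 679 and 457 CPM, and Pcl, which aids PRC2 binding, at 122.3 and 151.5 CPM. Of 8 measured genes of the Pho complex and other recruiters 3 were at least 2-fold higher and 0 lower, and 7 had both tumor plates above the control plates, where 13.1%, 14.7% and 33% of measured genes were. They were grh (333 to 696 CPM), a DNA-binding factor of late larval neuroblasts, Trl (381 to 798 CPM), the GAGA factor, and Spps (15.6 to 31.6 CPM), a zinc-finger factor that binds Polycomb response elements. The pho relative phol stood at 152.3 and 294 CPM, and pho took 35.6% of the reads of that pair in control and 27.5% in tumor.

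A list of 9 genes held subunits of the PR-DUB complex and of PRC1 variants, and other genes tied to Polycomb repression, such as crm and mxc. Of these 9, 3 were at least 2-fold higher in tumor and 0 lower, beside 13.1% and 14.7% of measured genes. They were crm (16.9 to 63.5 CPM), Asx (13.4 to 32.9 CPM), the partner of the histone H2A deubiquitinase, and Kdm2 (13.9 to 28.2 CPM). The multi sex combs gene mxc stood at 130.6 and 200.4 CPM. Of the 9, 4 had both tumor plates above both control plates and 1 had both below, beside 33% and 35.1% of measured genes. Among 14 measured trithorax group genes, which oppose Polycomb repression, 2 were at least 2-fold higher and 1 lower, near the 13.1% and 14.7% of measured genes. Both tumor plates lay above both control plates in 7 of the 14 and below in 2, beside 33% and 35.1% of measured genes. Set1, a histone H3 lysine 4 methyltransferase, was 5.11-fold higher (33.2 to 169.5 CPM) and Mnn1 2.14-fold higher (29.5 to 63.1 CPM), while ash2, a subunit of such methyltransferase complexes, was 2.15-fold lower (368 to 170.97 CPM). The methyltransferase gene ash1 stood at 46.9 and 88.3 CPM. Median log2 ratios were 0.31 for PRC2 partners, 0.76 for recruiters, 0.49 for the list with PR-DUB and PRC1 variants and 0.57 for the trithorax group. The 9 measured Polycomb group genes had 0.27. These medians were not matched for exonic length, and the longest class of measured genes alone had 0.49. No order of the lists is therefore read from them.

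Of 18 matched Hox genes and other classic targets only 6 were measured. Of these, 4 were at least 2-fold lower and 2 higher, beside 14.7% and 13.1% of measured genes. Antp and dac passed the minimum level only through control, where they were high, and Dll and eya were far higher in tumor, so the count is a description and supports nothing. Antp, the Hox gene of the thorax, had 5152 reads in control (0.544 and 38.9 CPM on its plates) and 0 in tumor. Its control level rests on plate 2, so no fold is given. Dll, a homeobox gene of limbs and optic lobe, went from 14.1 to 246 CPM and eya, a regulator of eye fate, from 24.4 to 240 CPM, and both lay far above control on both tumor plates. Another eye regulator, dac, went from 12.7 to 1.29 CPM. The remaining lower genes, named to complete the count, were the Pax6 genes ey (19.3 to 7.93 CPM) and toy (74.2 to 22.1 CPM), and toy stood at 0.0185 CPM on plate 3 and 46.9 CPM on plate 4. Ubx had 3 reads in control and 2 in tumor, and abd-A and eve had 0 in either. These genes also mark lineages and brain regions, and the tumor pool was rich in type II-like cells, so repression and cell makeup cannot be told apart here.

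Type II neuroblasts, the lineages from which brat tumors grow, were called type II-like where 3 or more of the genes pnt, btd, Sp1 and tll each had 5 reads or more, a definition chosen after these data had been seen. It took in 8 of 180 control cells, 83 of 93 cells of plate 3 and 74 of 92 cells of plate 4. Within tumor, the other 28 cells stood above the type II-like cells in Pc (140 against 76.5 CPM), E(z) (101.3 against 54.4 CPM), ph-p (173.4 against 105.1 CPM), Scm (133.5 against 77.1 CPM) and esc (61.1 against 36.8 CPM). Psc went the other way, at 71.5 CPM in the other cells and 115.02 CPM in the type II-like cells. The shares of cells with a read were 60.7% and 63.7% for Pc, 53.6% and 49.7% for E(z), 75% and 68.8% for ph-p, 64.3% and 70.1% for Scm and 46.4% and 43.9% for esc, other cells first, and for Psc they were 50% and 68.2%. For these genes the differences in summed level were in the same direction on both plates: for Scm, 131.1 against 83.6 CPM on plate 3 and 134.8 against 68.98 CPM on plate 4, and for Psc 86.8 against 117.2 CPM and 63.1 against 112.3 CPM. Su(z)12, ph-d and Sce changed direction between the plates. Su(z)12 stood at 13.6 against 44.6 CPM on plate 3 and at 81.2 against 37.8 CPM on plate 4, other cells first. No value over all measured genes is given for this contrast. The other cells numbered 10 on plate 3 and 18 on plate 4 and showed fewer genes, a median of 2684 against 3346 at equal depth. The 8 control type II-like cells, 2 from plate 1 and 6 from plate 2, stood at 42.7 CPM of Pc, 34.7 CPM of Scm and 155.6 CPM of Psc. Over all kept cells, plate 2 stood at 44.5, 32.6 and 137.5 CPM of these genes and plate 1 at 76.03, 15.2 and 228 CPM. Plate and cell type cannot be told apart in the ratios to these 8 cells. Against the 8 control cells the log2 ratio of the tumor type II-like cells was 1.58 for ph-d, 1.21 for ph-p, 1.15 for Scm, 0.85 for Sce and 0.84 for Pc. It was -0.49 for esc, -0.44 for Psc, -0.35 for E(z) and -0.03 for Su(z)12, beside a median of -0.03 over all measured genes. The ratio of ph-d rests on 140 control reads, with a read in 4 of the 8 cells after thinning. Su(z)2 had only 2 control reads there.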

How the data were processed

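Per the labels' protocols, green cells were sorted singly and amplified with SMART-Seq2 over 18 PCR cycles, without molecular identifiers, so reads include PCR copies. The deposited values are read counts of each gene in each cell, whole numbers that the authors did not normalize, judging from cell totals. The submitters' processing notes name the builds BDGP6 and dm6; the sources used here do not give aligner, counter or strand use.

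Cells with at least 100000 reads and 1000 genes were kept, 12 control and 7 tumor wells being left out, and no doublet caller was run. Counts were summed over kept cells per plate and group and given per 1000000 reads, with exact Poisson intervals. Shares carry exact Clopper-Pearson intervals on cells thinned to 100000 reads. Kept cells held 126882 to 2329488 reads. Both groups were single pools, so no test was made. Coordinates and exonic lengths came from Ensembl's annotation on BDGP6.

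The genes and lists were chosen with earlier results of these data known. Named were all 10 genes, brat, markers, up to 4 genes of each related list by size of ratio among genes of at least 5 CPM, and up to 2 genes per member by correlation; ey, toy, Ubx, abd-A, eve, SpdS, CG7632 and CG34001 were named after their values were seen, to complete a count, for low counts or for exon overlap. Alternatives covered the weight of cells, thinning, scaling (TMM from edgeR 4.0.16 and median of ratios), filters, each plate left out and cell subsets; type II-like tumor cells against all control cells, and leaving out the highest cell, were added after seeing the data. The steps were tested on simulated counts. Python 3.11.15, numpy 2.4.6, pandas 2.3.3, scipy 1.17.1, matplotlib 3.10.9 and R 4.3.3 were used.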

Additional observations from a re-analysis of the deposited data

How the results depend on the processing

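Pc, ph-p and Scm stayed higher and E(z), esc and Psc lower in tumor under all alternatives run, and Su(z)12, ph-d, Su(z)2 and Sce changed sign under at least 1. The log2 ratio of Scm ranged from 1.15 (type II-like cells of both groups) to 2.48 (without plate 2) and that of ph-p from 0.67 to 1.53. TMM scaling moved the median of all genes by 0.05. By the median over cells it was -0.67, over only those genes that gave a value.

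The count of genes at least 2-fold lower went from 0 to 1 with equal weight per cell, with thinning, without the highest cell of each plate and with type II-like tumor cells against all control cells, to 4 with the median over cells (where esc and Su(z)2 gave no value, their tumor median being 0), and to 0 to 2 with a plate left out. The count at least 2-fold higher went from 2 to 4 with type II-like cells of both groups, to 1 with type II-like tumor cells against all control cells or the median over cells, and to 1 to 4 with a plate left out. Both tumor plates lay below control for 2 to 4 genes with a plate left out. The median log2 ratio of 0.26 became 0.85 with type II-like cells of both groups and -0.076 to 0.46 with a plate left out, lowest without plate 1.

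The median share difference of -19.1 points became 2.61 when a cell needed at least 5 reads (-5.35 over measured genes), where Pc stood at 4.13, Su(z)12 at 6.20, ph-p at 7.90, ph-d at 6.502 and Su(z)2 at 1.08 points. With all reads the difference for Scm was -2.60 points. With a plate left out it ranged from -2.24 (without plate 1) to 27.6 (without plate 2) for Scm, and, in the same order, from -39.4 to 7.99 for Su(z)12, from -22.6 to 5.68 for ph-p and from -8.83 to 2.16 for Su(z)2. The cause was not tested.

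The median correlation of 0.13 in control was 0.21 by Pearson on log2(CPM + 1), 0.074 after taking out the number of genes seen, and 0.082 to 0.12 on single plates. In tumor 0.052 became 0.074 by Pearson, 0.027 after taking out genes seen, 0.056 to 0.058 on single plates, 0.059 without thinning and 0.037 in type II-like cells. No paired analysis was possible because each group is 1 pool, replicate numbers only name wells and no test was made. Depth limits Su(z)2 most, at 372 and 346 reads.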

Other observations

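Left-out wells held little Polycomb group RNA. The 12 left-out control wells had 293641 reads in all, of which 36 came from the 10 genes, a level of 122.6 CPM (95% interval 85.9 to 169.7) against 610.5 CPM in kept control cells. The 7 left-out tumor wells had 72374 reads and 10 of these genes, a level of 138.2 CPM (66.3 to 254) against 649 CPM in kept tumor cells. Psc was the member with the most reads there in control, with 10.

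The reads of some genes sat in fewer tumor cells. At 100000 reads a cell, the 10% of cells richest in a gene gave 25.7% of the E(z) reads in control and 48.4% in tumor, 26.6% and 51.2% of the esc reads, and 29.0% and 49.9% of the Sce reads, beside medians of 33.6% and 50.3% over measured genes. For Scm the pooled values were 37.4% and 35.6% and for Psc 40.4% and 38.01%, without the rise at the median of measured genes. By plate, Scm stood at 51.1% and 29.9% in control and 36.4% and 34.7% in tumor. Psc stood at 43.7% and 27.6% in control and 34.3% and 42.1% in tumor. The groups overlap for both genes, so no direction is read from their pooled values.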
